A study of Mus musculus with 15 samples.

Results

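Gene expression in the colon of interleukin-10 gene-deficient (Il10-/-) mice at 12 weeks of age was set against that of Il10-/- mice at 7 weeks, to describe what changed within this genotype as colitis set in. The comparison took 7 of the 15 arrays of the series, chosen by their titles: 4 mice of 12 weeks (mice 92, 94, 95 and 96) and 3 mice of 7 weeks (mice 75, 77 and 78). The Il10-/- mice were B6.129P2-Il10<tm1Cgn>/J, which carry a targeted Il10 allele in every cell on a C57BL/6J background. C57BL/6J (C57) mice of 12 weeks (mice 63, 64, 65 and 66) and of 7 weeks (mice 43, 44, 45 and 46) were the controls with Il10 intact. All mice were male, were caged singly, ate the AIN-76A diet and had received Enterococcus strains and intestinal flora by mouth soon after arrival, the C57 mice included. Each array carried RNA of a full-thickness piece of colon from 1 mouse against a common pool, made of liver, kidney, colon, small bowel and whole fetus RNA of healthy Swiss mice. According to the methods of the study, the arrays of 12-week Il10-/- mice came from colons with moderate colitis, while 7-week Il10-/- mice that already had an inflamed colon were kept off the arrays. Age and colitis therefore cannot be told apart in this comparison, and the 7-week group does not represent all knockout mice of that age.

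Interleukin-10 is a cytokine through which macrophages and regulatory T cells hold back responses to gut bacteria, and mice without it develop colitis once bacteria are present. In an inflamed colon, neutrophils and monocytes enter from the blood and release interleukin-1 and calprotectin, while plasma cells in the lamina propria secrete IgA as dimers held together by the J chain. The surface epithelium of the healthy colon absorbs salt and water with chloride/bicarbonate exchangers, carbonic anhydrases, sodium pumps and aquaporins.

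The values are log2 ratios of colon over pool, so a difference of 1 between groups is a change of 2 fold, and a negative ratio means that the pool held more of the transcript than the colon. Between 41687 and 42147 of 44290 features had a value on an array, and 19076 genes with features of a single annotated symbol were tested. The number of arrays limits the precision, and nothing in the labels gives a slide, a scan or an extraction batch. Genes of the colon epithelium list had median ratios between 0.46 and 0.69 in the 12-week Il10-/- mice and between 0.57 and 0.67 in the 7-week Il10-/- mice, while genes of the liver list lay between −2.79 and −2.63 at 12 weeks and between −3.24 and −2.74 at 7 weeks. Il10 itself has 1 feature, with ratios of 0.03 to 0.25 at 12 weeks and 0.01 to 0.18 at 7 weeks in Il10-/- mice, and −0.17 to 0.18 in C57 mice. These ranges overlap, so this feature does not check the genotype, and whether it lies in the deleted part of the gene is not given in the sources used here.

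In Il10-/- mice, 57 genes were higher at 12 than at 7 weeks (0.299% of the genes tested) and 23 were lower (0.121%), with a limma adjusted p under 0.05 and a change of at least 1.5 fold. Immunoglobulin and plasma cell genes led the rises, with the J chain (Jchain) 4.52 fold higher and the lambda variable gene Iglv1 4.61 fold higher. Outside the immunoglobulins and the J chain, the interleukin-1 beta gene (Il1b) and the calprotectin subunit S100a9 had the largest rises. Carbonic anhydrases 4 and 2 (Car4, Car2), the protease inhibitor Wfdc2, the water channel Aqp4 and the homeobox genes Hoxa10 and Hoxa11 had the largest falls, with Car4 at a 2.63 fold lower level. The mice of the 2 ages did not overlap in 77 of the 80 called genes, against 13.5% of all genes, and calling a gene favours such a separation. Of the 80 genes, 41 kept their call when any 1 of the 15 mice was left out (29 higher and 12 lower). The fit took its spread from all 15 arrays. In a fit of the 7 Il10-/- arrays alone, which leaves the differences as they are, 48 of the 80 kept their call and 32 lost it, and these 32 are named beside their genes.

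The mice of each age were not alike. Of the 12-week mice, mouse 95 lay nearest to the 7-week mice in 38 of the 80 called genes and in 16 of the 23 that were lower. Of the 7-week mice, mouse 75 lay nearest to the 12-week mice in 48 of the 80 genes and in 19 of the 23 that were lower. Leaving out mouse 95 gave 66 genes higher and 44 lower, and leaving out mouse 75 gave 69 higher and 42 lower. Leaving out mouse 78 gave 36 higher and 14 lower, and leaving out mouse 96 gave 37 higher and 17 lower. Without mice 95 and 75 together, an alternative chosen after seeing the data, 80 genes were higher and 57 lower.

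The C57 mice gave the change that comes with the same ages where Il10 is intact and the colon not inflamed. In them 44 genes were higher at 12 than at 7 weeks (0.231%) and 33 were lower (0.173%). The change in Il10-/- mice minus that in C57 mice, tested as an interaction, was positive for 94 genes (0.493%) and negative for 125 (0.655%). It was called for 55 of the 80 genes (40 of the higher and 15 of the lower), a count that rests on the same Il10-/- mice as the call itself. Only 3 of the 80 genes were also called in C57 mice, each in the opposite direction: the chloride/bicarbonate exchanger Slc26a3, apolipoprotein E (Apoe) and 2210407C18Rik. Of the 57 genes higher in Il10-/- mice, 28 had a positive and 29 a negative difference in C57 mice.

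**Figure D1:**
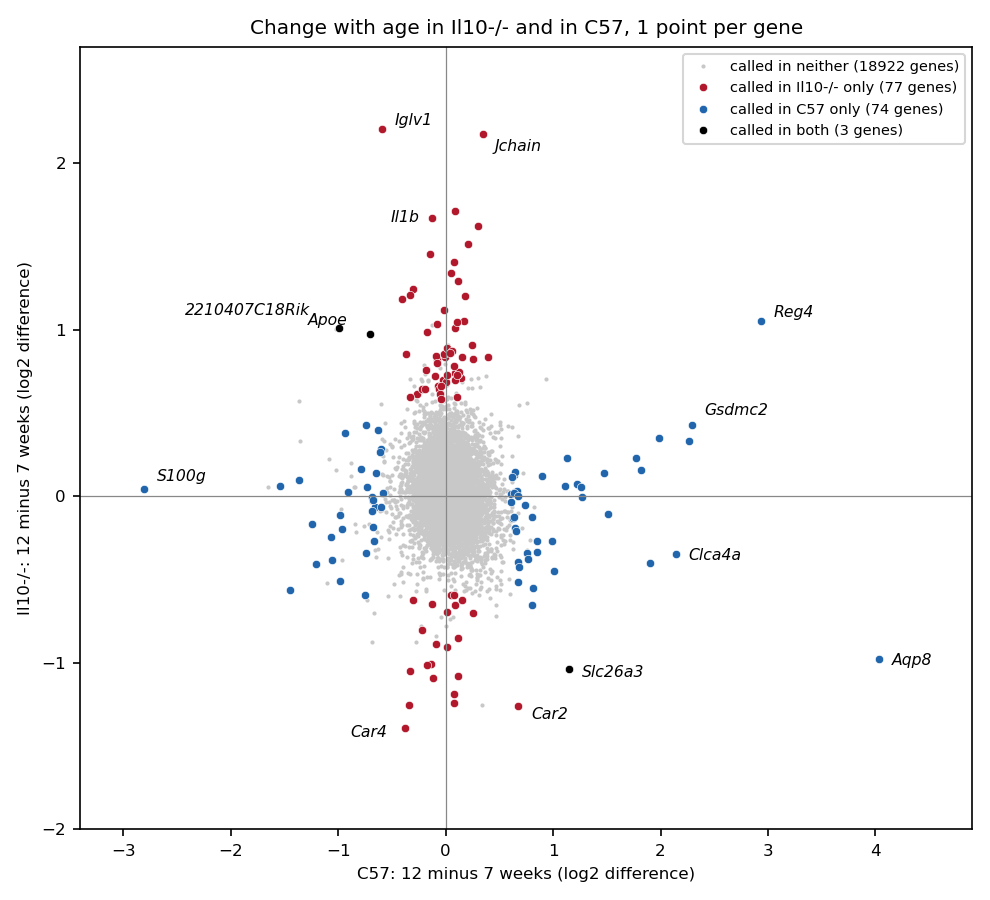
Log2 difference between 12 and 7 weeks for each gene, in Il10-/- mice on the vertical axis and in C57 mice on the horizontal axis, with genes coloured by where they were called. Most of the 80 genes called in Il10-/- mice lie near 0 in C57 mice, and 3 genes were called in both, in opposite directions.

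Plasma cell and immunoglobulin transcripts formed the largest block of rising genes. Of 13 measured members of the plasma cell and immunoglobulin list, 6 were higher at 12 weeks in Il10-/- mice, against 0.299% of all genes, and 0 lower. The median log2 difference was 0.47 against 0.01 over all genes. In C57 mice 0 of the 13 were called and the median was 0.02. The array holds 22 immunoglobulin genes by symbol, a group formed after the calls were seen. In Il10-/- mice 9 of them were higher, against 0.299% of all genes, and 0 were lower. All 22 had a positive difference, as had 10205 of all 19076 genes. In C57 mice 0 were called, where 0.404% of all genes were. Probes of variable genes may read several of them, so the 22 may not all be separate readings. In bulk tissue, more plasma cells and more RNA per plasma cell cannot be told apart.

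Jchain, which joins IgA and IgM into polymers, had log2 ratios of 1.87, 1.89, 2.19 and 1.98 in the 12-week Il10-/- mice and of −0.45, −0.30 and 0.17 in the 7-week Il10-/- mice. All 4 older mice stood above all 3 younger ones, and the C57 mice of both ages lay between −0.71 and 0.64. The log2 difference was 2.18 ± 0.23 (SE, limma adjusted p = 1.5e-04), and the interaction was 1.83 ± 0.32 (adjusted p = 0.00858). The 2 features of Jchain gave 1.92 and 2.43.

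Iglv1, a lambda light chain variable gene, had ratios of 2.97, 2.89, 3.12 and 2.65 at 12 weeks and of 0.68, 0.47 and 0.97 at 7 weeks in Il10-/- mice. The C57 mice lay between 0.70 and 2.12, so that the 7-week Il10-/- mice overlapped only the lower end of the controls and the 12-week ones lay above all of them. The difference was 2.21 ± 0.22 (adjusted p = 9.5e-05), against −0.59 in C57 mice, which was not called. Its 9 features ranged from 0.92 to 2.82. Variable genes of one family are close to identical, so probes may read several of them, and which variable gene rose is uncertain.

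Ighv14-4, a heavy chain variable gene, had ratios of 1.40, 1.58, 1.44 and 1.35 at 12 weeks and of −0.25, −0.39 and −0.18 at 7 weeks in Il10-/- mice. The kappa variable gene Igkv4-55 had 1.60, 1.10, 0.98 and 1.11 at 12 weeks and −0.14, −0.17 and −0.12 at 7 weeks. Neither gene overlapped between the ages, and the interactions were 1.63 ± 0.21 and 1.29 ± 0.16, with adjusted p of 0.00173 for Ighv14-4 and 0.00168 for Igkv4-55. Another kappa variable gene (1.51 ± 0.21), Igkv10-96 (1.46 ± 0.20), Ighv1-33 (1.41 ± 0.14), Ighv1-54 (1.29 ± 0.12) and Igkv3-4 (1.05 ± 0.15) were also higher. The constant region gene of IgA (Igha) rose by less, 0.78 ± 0.11 (adjusted p = 0.00156), with ratios of 0.64 to 0.89 at 12 weeks and −0.20 to 0.13 at 7 weeks. The IgM constant region gene Ighm differed by 0.36 (adjusted p = 0.0192), below the 1.5 fold needed for a call, and the IgG3 gene Ighg3 by 0.22 (adjusted p = 0.159). Both were named after their values were seen.

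Some genes of the plasma cell programme rose with the immunoglobulins, while 7 of the 13 measured members of that list were not called. Xbp1, Prdm1, Sdc1, Tnfrsf17 and Irf4, also listed, were not among its called members. Pou2af1, a coactivator of octamer-binding factors in B cells, had ratios of 0.79, 0.76, 0.69 and 0.84 at 12 weeks and of −0.07, −0.21 and 0.01 at 7 weeks in Il10-/- mice. Mzb1, an endoplasmic reticulum protein that helps assemble secreted antibody, had 0.92, 0.93, 0.97 and 0.98 at 12 weeks and 0.17, −0.04 and 0.21 at 7 weeks. The 12-week mice lay within a narrow band for both genes, well above the 7-week mice, with differences of 0.86 ± 0.09 (adjusted p = 1.0e-04) and 0.83 ± 0.08 (adjusted p = 7.2e-05). Derl3, a component of endoplasmic reticulum degradation in secretory cells, was higher by 0.70 ± 0.13 and lost its call without mouse 94 or mouse 75 (adjusted p up to 0.0508), and also in the fit of the 7 Il10-/- arrays alone (adjusted p = 0.0938). Its 7-week Il10-/- mice (−0.64 to −0.19) lay below all C57 mice (−0.18 to 0.17), and the 12-week ones (0.14 to 0.70) overlapped them. Tent5c, a poly(A) polymerase active in plasma cells, was higher by 0.83 ± 0.09 and belongs to no list. In C57 mice it was higher by 0.26 (not called, limma adjusted p = 0.184). Its interaction, 0.57 ± 0.12, was under the fold threshold and not called. Of 16 measured B cell genes, only the antigen receptor subunit Cd79b was called, with ratios of 0.49 to 0.79 at 12 weeks and −0.38 to −0.15 at 7 weeks (0.84 ± 0.10, adjusted p = 2.6e-04). The median of the B cell list was 0.06.

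**Figure D2:**
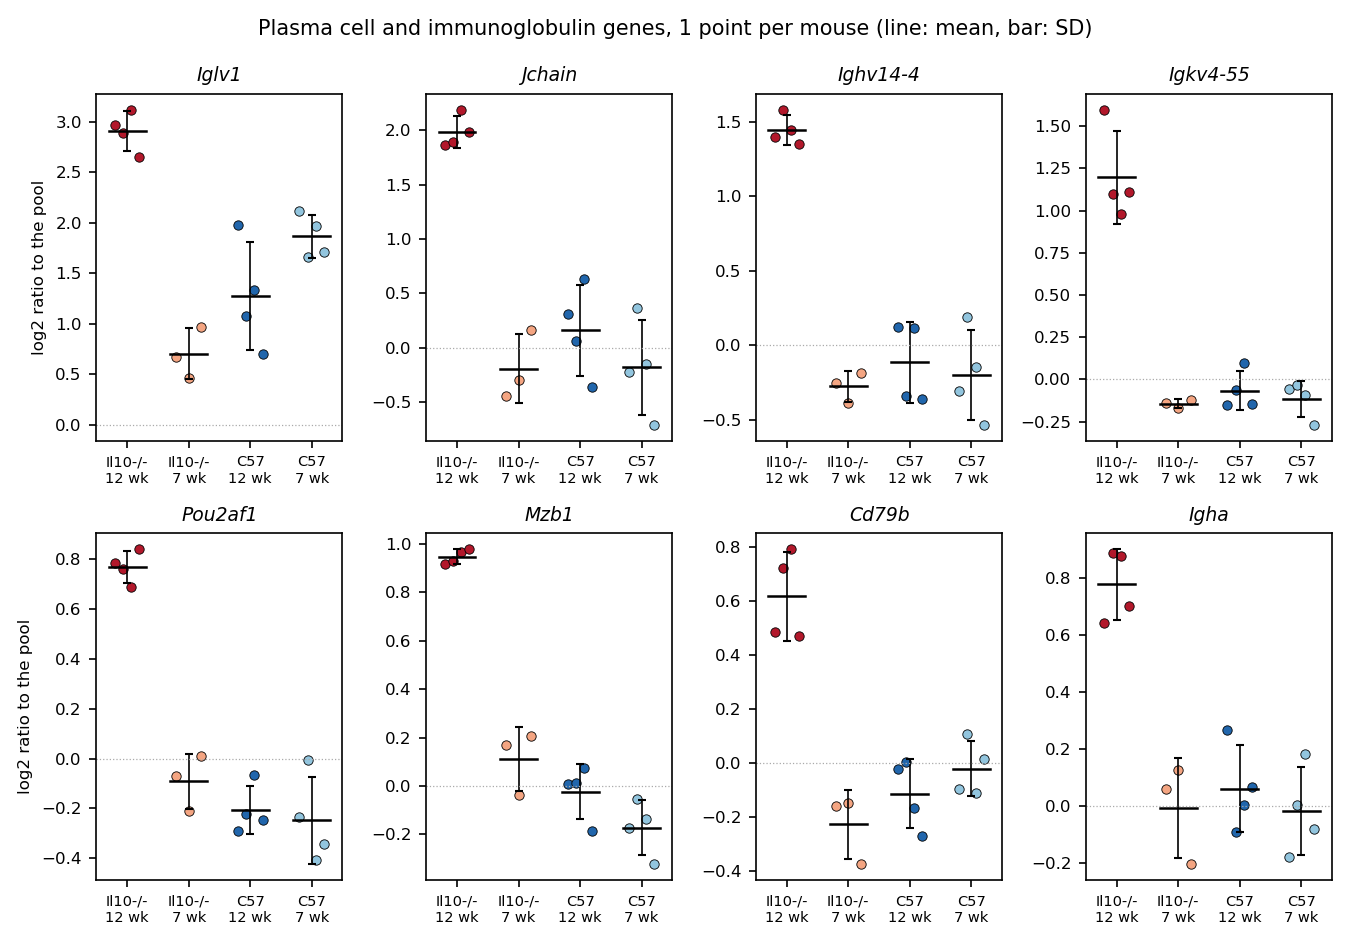
Log2 ratio of colon over pool for 8 plasma cell, B cell and immunoglobulin genes, 1 point per mouse, with the mean and SD of each group. In each panel the 4 Il10-/- mice of 12 weeks lie above the 3 of 7 weeks, and the C57 mice of 12 and 7 weeks overlap.

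Il1b and S100a9 were higher at 12 weeks, and for both mouse 95 stood apart from the other 3 older Il10-/- mice. Il1b, the main secreted interleukin-1, had ratios of 3.36, 2.91, 1.09 and 3.23 in mice 92, 94, 95 and 96, and of 1.05, 0.69 and 1.19 in the 7-week Il10-/- mice. S100a9, a calprotectin subunit that neutrophils carry in bulk, had 3.10, 2.81, 1.25 and 3.38 in the 12-week mice and 1.03, 0.68 and 1.32 in the 7-week mice. For both genes mouse 95 lay within the range of the 7-week mice and the other 3 mice far above it, while C57 mice did not exceed 0.28 for Il1b or −0.39 for S100a9. The differences were 1.67 ± 0.38 for Il1b (adjusted p = 0.0438) and 1.62 ± 0.37 for S100a9 (adjusted p = 0.0451). Both calls were lost when any 1 of mice 64, 65, 43, 44, 45, 46, 92, 94, 96, 75, 77 or 78 was left out, with adjusted p up to 0.193 for Il1b and 0.199 for S100a9. They were also lost in the fit of the 7 Il10-/- arrays alone (adjusted p = 0.182 and 0.159). Without mouse 95 the differences were 2.19 for Il1b (adjusted p = 8.57e-06) and 2.08 for S100a9 (adjusted p = 2.13e-04). Their interactions, 1.79 ± 0.52 and 1.32 ± 0.51, were not called (adjusted p = 0.086 and 0.194).

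The neutrophil list had 2 of 23 measured members higher, S100a9 and haptoglobin (Hp), against 0.299% of all genes, and a median of 0.12. Hp (1.18 ± 0.28, adjusted p = 0.0496) lost its call without any 1 of mice 64, 65, 43, 44, 45, 46, 94, 96, 77 or 78, with differences between 1.01 and 1.39, and in the fit of the 7 Il10-/- arrays alone (adjusted p = 0.103). Of 23 monocyte and macrophage genes 0 were called, although 14 had an unadjusted p under 0.05 in the upward direction against 7.75% of all genes, and the list median was 0.29. The list's first members, Adgre1 and lysozyme 2 (Lyz2), had differences of 0.25 ± 0.10 and 0.43 ± 0.15. The list medians lay between 0.25 and 0.51 in the 12-week and between 0.03 and 0.25 in the 7-week Il10-/- mice.

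Among the other cytokines of 38 measured in the interleukin-1, TNF and interleukin-6 families, Il33 and lymphotoxin beta (Ltb) were higher and Il18 lower. Il33, an alarmin held in the nuclei of stromal and endothelial cells, had ratios of 0.60, 0.24, 0.04 and 0.39 at 12 weeks and of −0.39, −0.36 and −0.48 at 7 weeks in Il10-/- mice. The ages did not overlap, and the difference was 0.73 ± 0.11 (adjusted p = 0.00333). Ltb, which organises lymphoid tissue, was higher by 0.65 ± 0.14 (adjusted p = 0.0315) and lost its call without any 1 of mice 94, 95, 96, 75 or 78, with differences between 0.51 and 0.79. Chemokines had 3 of 34 members higher, against 0.299% of all genes, and 0 lower, with a median of 0.19. These were Cxcl14, an epithelial and stromal chemokine (1.01 ± 0.10, adjusted p = 9.5e-05), Cxcl13, which draws B cells into follicles (0.64 ± 0.12, adjusted p = 0.0169), and Cxcl12, a homing signal for plasma cells and progenitors (0.62 ± 0.14, adjusted p = 0.048). Cxcl13 lost its call without any 1 of mice 95, 96, 77 or 78 (differences of 0.52 to 0.75), and Cxcl12 without any 1 of 12 mice, all but 44, 46 and 75 (0.48 to 0.82). Ltb, Cxcl12 and Cxcl13 also lost their calls in the fit of the 7 Il10-/- arrays alone (adjusted p = 0.152, 0.127 and 0.0871), which left Cxcl14 as the 1 chemokine called. Cxcl12 had −0.62 to −0.40 at 12 weeks and −1.41 to −0.725 at 7 weeks in Il10-/- mice. The C57 mice lay between −0.85 and −0.18, a range that held the older Il10-/- mice and, of the younger, mouse 75 alone. For Cxcl14 the 7-week Il10-/- mice (−2.97 to −2.70) lay below all C57 mice (−2.43 to −2.14), and the 12-week ones (−1.95 to −1.58) above them.

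Of 29 genes of antimicrobial defence, 3 were higher and 1 was lower, against 0.299% and 0.121% of all genes. Slpi, a secreted inhibitor of neutrophil proteases, had ratios of 0.64, 0.63, 0.29 and 0.67 in the 12-week and of −0.49, −0.67 and −0.53 in the 7-week Il10-/- mice. The ages lay far apart, with mouse 95 the lowest of the older mice, and the C57 mice, from −0.53 to −0.24, were near the younger knockout mice. The difference was 1.12 ± 0.09 (adjusted p = 4.6e-05), the mean of features that gave 0.13 and 2.12, so that its size depends on the feature. Lyz1, the Paneth cell lysozyme, was higher by 1.21 ± 0.24 (adjusted p = 0.022) and lost its call without any 1 of mice 96, 77 or 78 (differences of 1.12 to 1.34). Ncf4, a subunit of the phagocyte oxidase, was higher by 0.62 ± 0.08 and lost its call without mouse 78 (0.57, under the fold threshold). Pla2g5, a secreted phospholipase, was lower at 12 weeks, with 1.21, 1.14, 0.85 and 1.14 at 12 weeks and 1.80, 1.54 and 2.00 at 7 weeks (−0.70 ± 0.11, adjusted p = 0.00452).

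Clec7a, Acod1, Pirb and Adam8 were also higher at 12 weeks. Clec7a, the beta-glucan receptor dectin-1, had ratios of 1.83, 1.89, 1.59 and 1.71 at 12 weeks and of 0.96, 0.90 and 0.85 at 7 weeks in Il10-/- mice, while C57 mice lay between −0.14 and 0.24. The 3 sets were separate, and the difference between the ages was 0.85 ± 0.09 (adjusted p = 1.0e-04). It was the only member called of 34 pattern recognition genes. Acod1, which makes itaconate in activated macrophages, had 1.54, 1.26, 0.54 and 1.28 at 12 weeks and 0.38, 0.26 and 0.36 at 7 weeks. Mouse 95 was again the lowest of the older mice, and the call (0.82 ± 0.16, adjusted p = 0.018) was lost without any 1 of mice 94, 96, 77 or 78 (0.70 to 1.03) and in the fit of the 7 Il10-/- arrays alone (adjusted p = 0.124). The inhibitory receptor Pirb (0.87 ± 0.19) and the metalloprotease Adam8 (0.71 ± 0.14) were higher too, Pirb losing its call without any 1 of mice 92, 94, 96, 77 or 78 (0.78 to 0.99) and Adam8 without any 1 of mice 96, 75, 77 or 78 (0.65 to 0.79). Adam8 was the only member called of 27 matrix proteases and inhibitors, a list with a median of 0.13.

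**Figure D3:**
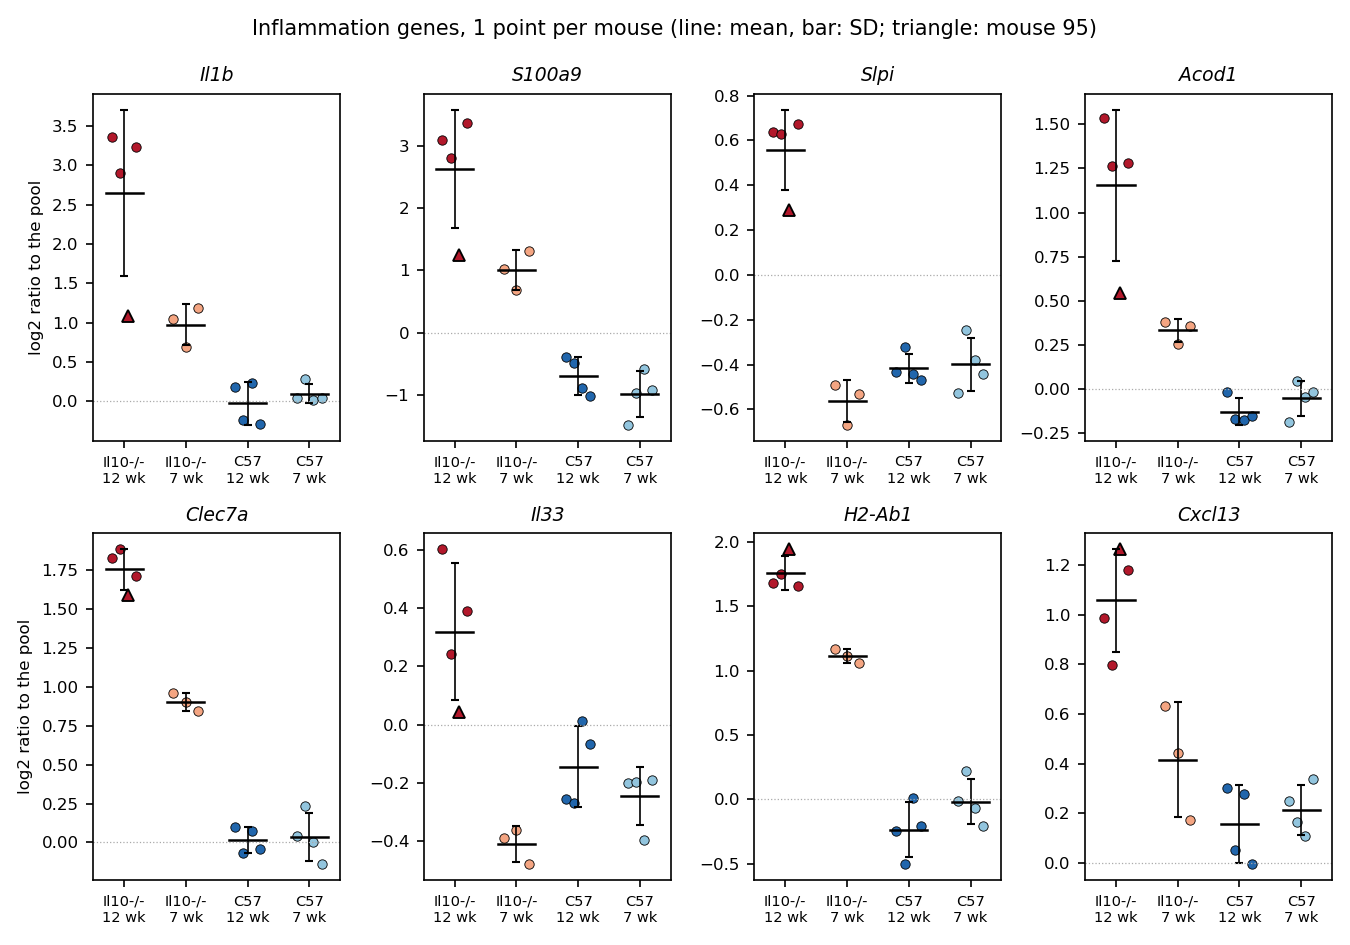
Log2 ratio of colon over pool for 8 inflammation genes, 1 point per mouse, with the mean and SD of each group and mouse 95 as a triangle. Mouse 95 is the lowest 12-week Il10-/- mouse for Il1b, S100a9, Slpi, Acod1, Clec7a and Il33, and the highest for H2-Ab1 and Cxcl13.

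The class II genes H2-Ab1 and H2-Aa and the lymphocyte genes Gzma and Itgb7 were higher at 12 weeks. H2-Ab1, a class II beta chain, had ratios of 1.68, 1.75, 1.94 and 1.66 at 12 weeks and of 1.17, 1.12 and 1.06 at 7 weeks in Il10-/- mice, and H2-Aa, its partner chain, 0.77, 0.94, 1.22 and 0.86 at 12 weeks and 0.34, 0.18 and 0.33 at 7 weeks. Both separated the ages, with differences of 0.64 ± 0.11 (adjusted p = 0.0101) and 0.66 ± 0.10 (adjusted p = 0.00354). They were 2 of 14 measured class II genes, whose median was 0.21, while 0.299% of all genes were called higher. H2-Aa fell under the fold threshold without mouse 95 (0.57), and H2-Ab1 lost its call without mouse 95, 77 or 78 (0.58 to 0.68). The 4 features of H2-Ab1 gave 0.41 to 0.80, the lowest with a limma adjusted p of 0.279. Gzma, a granule protease of cytotoxic lymphocytes, had 0.23, 0.38, 1.06 and 0.44 at 12 weeks and −0.51, −0.17 and −0.91 at 7 weeks (1.05 ± 0.18, adjusted p = 0.00792), and lost its call without mouse 78 (0.86, adjusted p = 0.0579) and in the fit of the 7 Il10-/- arrays alone (adjusted p = 0.0821). Mouse 95 was the highest mouse for H2-Ab1, H2-Aa and Gzma. Itgb7, the integrin chain that takes lymphocytes to the gut, was higher by 0.80 ± 0.10. The T cell list had 0 of 24 members called and a median of 0.06.

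Complement had 3 of 19 measured members higher, against 0.299% of all genes, and a median of 0.18. C1ra, a protease of the C1 complex, was higher by 0.83 ± 0.13 (adjusted p = 0.005), clusterin (Clu), a secreted chaperone that restrains the terminal complex, by 0.89 ± 0.13 (adjusted p = 0.00208), and C4b by 0.70 ± 0.16 (adjusted p = 0.041). C4b lost its call without any 1 of mice 44, 45, 92, 94, 95, 96, 77 or 78 (0.60 to 0.82). C1ra had ratios of −0.30, 0.01, −0.26 and −0.37 at 12 weeks and of −0.91, −1.44 and −0.85 at 7 weeks in Il10-/- mice, and lost its call in the fit of the 7 Il10-/- arrays alone (adjusted p = 0.0543). Its interaction, 0.44 ± 0.18, was not called (adjusted p = 0.229).

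Some rising genes were far more abundant in the pool than in the colon, with ratios under −2 in every 7-week Il10-/- mouse. These were Ctla2a (1.21 ± 0.17) and Ctla2b (0.99 ± 0.16), inhibitors of cathepsin-like proteases, Cxcl14, Hp, Clu, alkaline phosphatase (Alpl, 0.74 ± 0.16) and ceruloplasmin (Cp, 0.66 ± 0.10). Ctla2a had −2.95, −2.38, −2.24 and −2.64 at 12 weeks and −3.62, −3.88 and −3.77 at 7 weeks. The lists of liver and kidney genes, tissues of the pool, had 0 members called, with median differences of 0.26 (13 genes) and 0.23 (12 genes) in Il10-/- mice. The part of such a shift in these 7 genes was not tested. Alpl lost its call without any 1 of mice 92, 94, 96, 77 or 78 (0.64 to 0.83).

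The other rising genes belonged, but for Col18a1, to no list. The endothelium and adhesion list had 0 of 23 members called and a median of 0.07, and the collagen and fibroblast matrix list 1 of 32, Col18a1, and a median of 0.13. Mmrn2, an endothelial matrix protein, was higher by 0.72 ± 0.11, the anticoagulant receptor thrombomodulin (Thbd) by 0.60 ± 0.14, tissue factor (F3) by 0.76 ± 0.18 and Col18a1, a basement membrane collagen, by 0.73 ± 0.13. For Mmrn2 and Thbd the 7-week Il10-/- mice, with means of −1.32 and −0.68, lay below all C57 mice. The C57 mice lay between −0.90 and −0.57 for Mmrn2 and between −0.20 and 0.60 for Thbd. The 12-week Il10-/- mice overlapped these ranges (−0.70 to −0.42 and −0.19 to −0.01). Thbd lost its call without any 1 of 10 mice, all but 63, 64, 66, 44 and 75 (0.50 to 0.78), F3 without any 1 of 11, all but 63, 64, 66 and 95 (0.68 to 0.98), and Col18a1 without mouse 77 (adjusted p = 0.0628). All 3 lost their calls in the fit of the 7 Il10-/- arrays alone (adjusted p = 0.103 for Thbd, 0.152 for F3 and 0.0686 for Col18a1). Srgn, the proteoglycan of leukocyte granules, had −0.98, −1.02, −1.09 and −0.80 at 12 weeks and −1.87, −2.02 and −2.12 at 7 weeks in Il10-/- mice (1.03 ± 0.13, adjusted p = 7.5e-04). Ccdc88b, which serves T cell activation, had 1.97, 2.13, 1.60 and 2.29 at 12 weeks and 0.66, 0.79 and 0.81 at 7 weeks (1.24 ± 0.12, adjusted p = 7.9e-05). Both genes separated the ages, and neither was called in C57 mice. Apoe had −0.87, −0.80, −0.90 and −0.97 at 12 weeks and −1.70, −1.80 and −2.08 at 7 weeks in Il10-/- mice (0.98 ± 0.16, adjusted p = 0.00593), while in C57 mice it was lower at 12 weeks by −0.70 (adjusted p = 0.0305, lost without any 1 of mice 64, 66, 43, 44 or 45). Ccnd2 (cyclin D2), the leukocyte genes Arhgdib and Cd163l1, Ctsh (cathepsin H), the semaphorin Sema7a, Ceacam12, the Wnt target Sp5 and the splicing factor gene Snrpb completed the 57 with 2210407C18Rik (1.01 ± 0.23), with differences between 0.59 and 0.91 for the others. Of these only Ctsh kept its call without any 1 mouse. The call was lost without any 1 of mice 77 or 78 for Arhgdib, 96, 77 or 78 for Cd163l1, 94, 96 or 77 for Sp5, 92, 96, 77 or 78 for Ccnd2, 92, 94, 96, 77 or 78 for Ceacam12, 92, 94, 96, 75, 77 or 78 for Sema7a, 64, 45, 94, 95, 96, 77 or 78 for 2210407C18Rik, and any but 63, 66 and 75 for Snrpb. The calls of Ccnd2, Cd163l1, Ceacam12, Sema7a, Snrpb and 2210407C18Rik were also lost in the fit of the 7 Il10-/- arrays alone, with adjusted p between 0.066 for Ceacam12 and 0.147 for Snrpb. C57 mice of both ages had −0.65 to −0.21 for Ctsh and 0.33 to 0.84 for Ccnd2. The 7-week Il10-/- mice lay below these ranges (−1.38 to −1.08 and −0.46 to −0.03), and the 12-week ones overlapped them (−0.60 to −0.20 and 0.21 to 0.76). For the other genes that completed the 57, the 7-week Il10-/- mice overlapped the C57 mice.

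For 36 of the 57 rising and 17 of the 23 falling genes RefSeq gives promoter windows of 300 bases (250 before and 50 after a transcript start, GRCm38.p6), 48 and 23 windows, some of them of the same gene and sharing sequence. They were searched on both strands for 11 short motifs, chosen with the results known. TTNNGCAA, the letters of C/EBP sites, was in 25% of the windows of rising genes and in 26.1% of those of falling genes (6 windows of 3 genes), against 10.8% of all 32851 windows. TATAAA was in 37.5% and 21.7%, against 13.6%. The octamer ATTTGCAT was in 10.4% of the windows of rising genes (those of C1ra, Ceacam12, Il33 and Srgn) and in 4.35% of those of falling genes (Il18), against 1.74% of all windows. In the same order, the PU.1 letters GAGGAA were in 37.5% and 34.8%, against 28.3%, and the STAT letters TTCNNNGAA in 10.4% and 4.35%, against 8.3%. Letters of NF-kappaB sites, searched in a strict and a looser form, were in 2.08% and 0%, against 1.63%, for the strict form, and in 6.25% and 4.35%, against 5.56%, for the looser one. The ETS letters CACTTCC were in 6.25% and 0%, against 11%. The CDX letters TTTATG were in 8.33% and 0%, against 11.9%, and the longer form TTTATGG in 2.08% and 0%, against 2.75%. Every match to the strict NF-kappaB form is also one to the looser form, every match to TTTATGG is also one to TTTATG, and a motif without a match is only absent from these windows. The windows of S100a9 (chr3:90695672-90695971, minus strand) and Slpi (chr2:164356458-164356757, minus strand) were picked, among the larger rises outside the immunoglobulins, for their matches to TTNNGCAA, in capitals. Of the genes with larger rises than Slpi that have windows, Jchain and Lyz1 also held a match, and Il1b, Ccdc88b and Ctla2a held none.
S100a9: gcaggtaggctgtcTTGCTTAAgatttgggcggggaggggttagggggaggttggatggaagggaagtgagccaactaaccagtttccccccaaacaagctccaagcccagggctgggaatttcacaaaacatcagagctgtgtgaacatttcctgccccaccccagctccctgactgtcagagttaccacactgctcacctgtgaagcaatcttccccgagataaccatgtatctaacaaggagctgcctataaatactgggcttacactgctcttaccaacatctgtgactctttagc
Slpi: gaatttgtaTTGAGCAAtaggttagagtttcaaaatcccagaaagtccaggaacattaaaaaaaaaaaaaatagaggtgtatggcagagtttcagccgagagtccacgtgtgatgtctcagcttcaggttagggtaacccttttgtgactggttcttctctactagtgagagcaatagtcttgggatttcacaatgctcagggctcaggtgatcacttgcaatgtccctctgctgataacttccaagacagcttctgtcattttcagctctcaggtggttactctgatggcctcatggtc
Each window holds 1 match, which begins at −236 from the start in S100a9 and at −241 in Slpi. A match is a description of the letters and no evidence of binding.

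Car4, Car2, Aqp4, Slc26a3 and Atp1b1, transport genes of the surface colonocyte, were lower at 12 weeks in Il10-/- mice. Of 34 measured members of the ion and water transport list, these 5 were lower, against 0.121% of all genes, and 0 higher, with a median of −0.13. Car4 alone kept its call in the fit of the 7 Il10-/- arrays alone (adjusted p = 0.0425), where adjusted p was 0.0744 for Car2, 0.0863 for Aqp4, 0.116 for Slc26a3 and 0.0814 for Atp1b1. In all, 12 members were lower at an unadjusted p under 0.05, against 5.9% of all genes. In C57 mice 5 members were higher and 2 lower, against 0.231% and 0.173% of all genes, with a median of 0.02. The interaction was called for 10 members, 9 of them negative, against 0.655% of all genes called negative and 0.493% positive. Fewer surface cells and less RNA per cell cannot be told apart here either.

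Car4, the carbonic anhydrase on the apical membrane, had ratios of −0.41, 0.14, 0.77 and 0.19 in mice 92, 94, 95 and 96, and of 1.47, 1.48 and 1.76 in the 7-week Il10-/- mice. The ages did not overlap. The C57 mice, at 0.24 to 0.44 at 12 weeks and 0.66 to 0.80 at 7 weeks, lay below the 7-week knockout mice. The difference was −1.40 ± 0.18 (adjusted p = 8.8e-04), and the interaction −1.02 ± 0.24 (adjusted p = 0.0404), lost without any 1 of 12 mice (all but 63, 92 and 95).

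Car2, the cytosolic carbonic anhydrase, had −1.39, −1.25, −0.40 and −1.07 at 12 weeks and −0.23, 0.55 and 0.39 at 7 weeks in Il10-/- mice. In C57 mice it ran the other way, at 1.23 to 1.35 at 12 weeks and 0.52 to 0.79 at 7 weeks, without passing the test. The difference was −1.26 ± 0.20 in Il10-/- mice (adjusted p = 0.00428), and the interaction −1.94 ± 0.27 (adjusted p = 0.0026).

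Slc26a3, which exchanges chloride for bicarbonate across the apical membrane, had 0.27, −0.19, 0.11 and −0.25 at 12 weeks and 0.42, 1.09 and 1.56 at 7 weeks in Il10-/- mice. The C57 mice had 1.26, 1.11, 1.62 and 1.95 at 12 weeks and 0.37, 0.25, 0.37 and 0.36 at 7 weeks. The older mice were thus the lower ones in the knockout and the higher ones in C57, with differences of −1.04 ± 0.22 (adjusted p = 0.0342) and 1.15 (adjusted p = 0.0139, lost without mouse 44) and an interaction of −2.19 ± 0.31 (adjusted p = 0.00272). Its 3 features disagreed, with −1.69, −1.41 and −0.01 in Il10-/- mice. The Il10-/- call was lost without any 1 of mice 45, 94, 96, 77 or 78 (−1.34 to −0.77), while the interaction was called without any 1 mouse.

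Aqp4, a water channel of the basolateral membrane, had −0.02, −0.47, −0.46 and −0.53 at 12 weeks and 0.28, 0.79 and 1.56 at 7 weeks in Il10-/- mice (−1.25 ± 0.21, adjusted p = 0.00711). All C57 mice lay between −1.07 and −0.69, below the Il10-/- mice of both ages. Atp1b1, the beta subunit of the sodium pump, had −1.01, −0.85, −0.50 and −0.93 at 12 weeks and −0.39, 0.37 and 0.21 at 7 weeks (−0.89 ± 0.15, adjusted p = 0.00729), and lost its call without mouse 77 or 78 (−1.11 to −0.73).

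The carriers Slc13a2, Slc51b, Slc6a8 and Slc6a14, outside that list, were lower as well. The citrate carrier Slc13a2 had 0.27, 0.47, 1.45 and 0.60 at 12 weeks and averaged 1.71 ± 0.25 (SD, n = 3) at 7 weeks (−1.01 ± 0.21, adjusted p = 0.0285), with mouse 95 just under the younger mice. The bile acid exporter subunit Slc51b (−0.80 ± 0.12), the creatine carrier Slc6a8 (−0.65 ± 0.14) and the amino acid carrier Slc6a14 (−0.62 ± 0.14) were lower too. Slc13a2 (−1.26 to −0.87) and Slc6a8 (−0.87 to −0.49) each lost the call without any 1 of mice 92, 94, 96, 77 or 78, and Slc6a14 without any 1 of mice 44, 45, 46, 92, 94, 96, 75, 77 or 78 (−0.76 to −0.48). These 3 also lost it in the fit of the 7 Il10-/- arrays alone (adjusted p = 0.134 for Slc13a2, 0.149 for Slc6a8 and 0.172 for Slc6a14). Slc6a8 overlapped between the ages, with −1.13 to −0.77 at 12 weeks and −0.78 to 0.00 at 7 weeks. The C57 mice lay between −1.04 and −0.72, a range that overlapped the 12-week Il10-/- mice and, of the 7-week ones, only mouse 75. Slc6a14 was also lower at 12 weeks in C57 mice, by −0.30 (not called, adjusted p = 0.319). Its interaction was not called (adjusted p = 0.404).

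**Figure D4:**
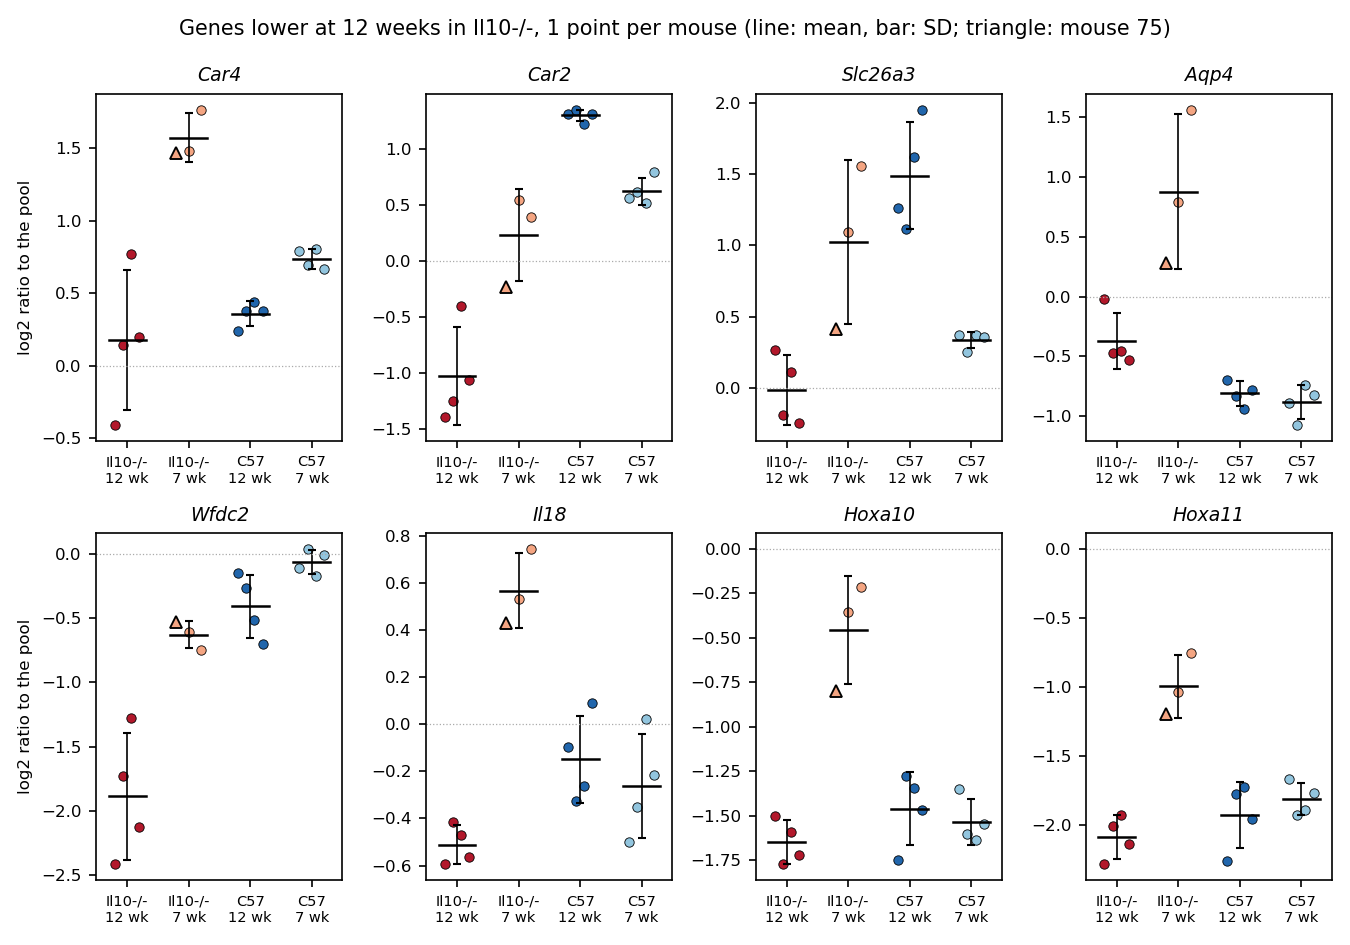
Log2 ratio of colon over pool for 8 genes that were lower at 12 than at 7 weeks in Il10-/- mice, 1 point per mouse, with the mean and SD of each group and mouse 75 as a triangle. Mouse 75 is the 7-week Il10-/- mouse nearest to the 12-week mice for Car4, Car2, Slc26a3, Aqp4, Il18, Hoxa10 and Hoxa11.

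The remaining lower genes outside the Hoxa cluster included Il18, Wfdc2 and St3gal4. The colon epithelium list had 1 of 16 members called, Slc26a3, which that list shares with the transport list, and a median of −0.02, and the absorptive cell differentiation list 0 of 24. Il18, an interleukin-1 family cytokine made by the epithelium, had ratios of −0.59, −0.42, −0.47 and −0.57 at 12 weeks and of 0.43, 0.53 and 0.74 at 7 weeks. The sets were tight and apart, the C57 mice ran from −0.50 to 0.09, below every 7-week and partly level with the 12-week Il10-/- mice, and the difference was −1.08 ± 0.12 (adjusted p = 1.9e-04). Wfdc2, a secreted protease inhibitor of epithelia, had −2.41, −1.73, −1.28 and −2.12 at 12 weeks and −0.54, −0.61 and −0.75 at 7 weeks (−1.26 ± 0.20, adjusted p = 0.0043), with an interaction of −0.91 ± 0.27 that was not called (adjusted p = 0.0897), and its own call was lost in the fit of the 7 Il10-/- arrays alone (adjusted p = 0.0593). The sialyltransferase St3gal4 had 0.45, 0.39, 0.71 and 0.63 at 12 weeks and 1.26, 1.59 and 1.92 at 7 weeks (−1.05 ± 0.15, adjusted p = 0.00268). Cyp4f14, which inactivates leukotriene B4, was lower by −0.90 ± 0.16 (adjusted p = 0.0103) and lost its call without mouse 77 or 78 (−1.09 to −0.74) and in the fit of the 7 Il10-/- arrays alone (adjusted p = 0.0613). It was the only one called of 64 xenobiotic genes. The others were Smpdl3a, a phosphodiesterase, Max, the partner of Myc, Rfk (riboflavin kinase), the translation inhibitor Eif4ebp3 and Mall, with differences between −0.70 and −0.59. Each lost its call without some 1 mouse: 94, 77 or 78 for Smpdl3a, 44, 45, 92, 94, 96, 77 or 78 for Max, 92, 96, 77 or 78 for Rfk, 92, 94, 96, 77 or 78 for Eif4ebp3 and 92, 77 or 78 for Mall. The calls of Smpdl3a, Max, Rfk and Mall were also lost in the fit of the 7 Il10-/- arrays alone, with adjusted p between 0.0669 for Mall and 0.0764 for Rfk and Smpdl3a. For Eif4ebp3 the 12-week Il10-/- mice (0.905 to 1.25) overlapped the C57 mice (0.78 to 1.08), and the 7-week ones lay above (1.47 to 1.71). For Rfk the 7-week Il10-/- mice (0.68 to 0.77) overlapped the C57 mice (0.74 to 1.21), and the 12-week ones lay below (−0.16 to 0.44).

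GTTAAT, letters that are part of sites of the epithelial factor HNF1, was in 21.7% of the windows of falling genes (those of Cyp4f14, Hoxa10, Hoxa9, Il18 and Slc26a3) and in 8.33% of the windows of rising genes, against 7.1% of all windows. The windows of Slc26a3 (chr12:31437969-31438268, plus strand) and Il18 (chr9:50554450-50554749, plus strand) are shown because each holds 2 matches, in capitals. In Il18 they read ATTAAC, the other strand.
Slc26a3: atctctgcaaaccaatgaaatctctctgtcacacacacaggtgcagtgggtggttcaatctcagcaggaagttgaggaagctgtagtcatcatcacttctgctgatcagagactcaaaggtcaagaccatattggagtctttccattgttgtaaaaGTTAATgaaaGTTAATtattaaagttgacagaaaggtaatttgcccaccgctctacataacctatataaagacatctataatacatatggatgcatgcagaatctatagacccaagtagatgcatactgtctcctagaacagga
Il18: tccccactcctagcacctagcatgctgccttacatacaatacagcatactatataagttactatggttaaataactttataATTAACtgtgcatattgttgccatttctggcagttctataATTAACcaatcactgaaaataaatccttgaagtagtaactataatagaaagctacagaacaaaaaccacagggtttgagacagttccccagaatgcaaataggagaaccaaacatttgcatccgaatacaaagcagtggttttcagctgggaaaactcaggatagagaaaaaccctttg
In Slc26a3 the matches begin at −94 and −84 from the start, and in Il18 at −169 and −129. These letters do not show that HNF1 binds there.

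Hoxaas3, Hoxa9, Hoxa10 and Hoxa11 of the Hoxa cluster were lower at 12 than at 7 weeks in Il10-/- mice. Hox genes of the posterior end set position along the gut. Hoxa10 had ratios of −1.50, −1.77, −1.59 and −1.72 in the 12-week and of −0.80, −0.36 and −0.21 in the 7-week Il10-/- mice, against −1.75 to −1.28 in the C57 mice. The 12-week knockout mice lay among or beside the C57 mice, and the 7-week knockout mice above them all. The difference was −1.19 ± 0.13 (adjusted p = 1.9e-04), with 0.07 in C57 mice and an interaction of −1.26 ± 0.18 (adjusted p = 0.00313).

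The neighbours of Hoxa10 followed it in part. Hoxa11 was lower by −1.09 ± 0.13 (adjusted p = 4.3e-04), Hoxa9 by −0.85 ± 0.12 (adjusted p = 0.00202) and Hoxaas3, an antisense transcript of the cluster, by −1.01 ± 0.10 (adjusted p = 7.2e-05). Hoxa5 (−0.43 ± 0.09, adjusted p = 0.0296) was under the fold threshold, and Hoxa7 (−0.65 ± 0.29, adjusted p = 0.336) did not pass the test. Of 12 measured genes of the cluster, in genome order, Hoxa2, Hoxaas2, Hoxa3 and Hoxa4 at one end differed by −0.12 to 0.04, Hoxa6 by −0.20 and Hoxa13 at the other end by −0.22, none of them called. The strand specificity of the probes is not given in the sources used here, so Hoxaas3 and its overlapping partners may not be separate readings. Of 16 posterior Hox genes listed, 3 were lower and the median was −0.01. The piece of colon taken along its length is not given in the sources used here, and its part in these values was not tested.

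Of the 5 largest rises and 5 largest falls with age in C57 mice, 0 were called in Il10-/- mice, where 0.419% of all genes were called. At that share so few genes would mostly hold none. These genes were picked by their change in C57 mice, and their interactions rest on the same C57 mice. Aqp8, a water channel of the surface colonocyte, had ratios of 1.52, 1.80, 1.84 and 2.29 at 12 weeks and of −2.25, −2.35, −2.11 and −1.99 at 7 weeks in C57 mice. In Il10-/- mice it had −0.46, −1.27, 0.33 and 0.03 at 12 weeks and −0.88, 1.10 and 1.68 at 7 weeks. The C57 groups were far apart and the Il10-/- groups overlapped, with differences of −0.98 ± 0.46 in Il10-/- (adjusted p = 0.364) and 4.04 in C57 mice (adjusted p = 1.9e-04) and an interaction of −5.02 ± 0.62 (adjusted p = 0.00168).

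S100g, the vitamin D dependent calcium binding protein calbindin-D9k, had −2.63, −3.39, −3.17 and −3.35 at 12 weeks and −3.33, −2.78 and −3.41 at 7 weeks in Il10-/- mice. In C57 mice it had −1.63, −1.23, −0.74 and −1.68 at 12 weeks and 1.92, 1.37, 1.24 and 1.44 at 7 weeks. Only the C57 groups were apart, and the interaction was 2.85 ± 0.32 (adjusted p = 8.8e-04). The gasdermins Gsdmc and Gsdmc2 rose in C57 mice by 2.27 and 2.29, against 0.33 ± 0.26 and 0.43 ± 0.21 in Il10-/- mice, and both interactions were called (−1.93 ± 0.36 and −1.86 ± 0.28). Clca4a, a chloride channel regulator, rose by 2.14 in C57 mice, against −0.35 ± 0.43 in Il10-/- mice (interaction −2.49 ± 0.59, adjusted p = 0.0392, lost without any 1 of mice 64, 66, 43, 44, 45, 94, 77 or 78).

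Of the remaining genes that changed most in C57 mice, the difference between the genotypes was called for the ubiquitin ligase Rnf186 (1.61 ± 0.39, adjusted p = 0.0423, lost without any 1 of mice 65, 43, 44, 45, 46, 94, 95, 96, 77 or 78). It was not called for the goblet cell lectin Reg4 (−1.88 ± 0.62, adjusted p = 0.126), the iron exporter Slc40a1 (0.89 ± 0.44, adjusted p = 0.323), the enteroendocrine granule protein Chga (1.46 ± 0.44, adjusted p = 0.0989) or Ly6c2 (1.08 ± 0.30, adjusted p = 0.0709). For Reg4, mouse 92 stood apart, with 1.64 against −1.08 to −0.77 in the other 12-week Il10-/- mice and −1.39 to −1.34 at 7 weeks.

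Among the genes that the study measured by RT-PCR, Il1b alone was called on the arrays between the ages in Il10-/- mice. Mmp13, a collagenase, had ratios of 1.36, 0.62, 0.06 and 0.92 at 12 weeks and of −0.04, −0.08 and −0.04 at 7 weeks, with mouse 95 again next to the younger mice (0.80 ± 0.20, adjusted p = 0.0698). Igfbp5 differed by 0.69 ± 0.19 (adjusted p = 0.0865) and Aldh1a1, a retinaldehyde dehydrogenase, by −0.61 ± 0.24 (adjusted p = 0.264). The carboxylesterases Ces2a, Ces2b, Ces2e and Ces2g differed by 0.43, −0.37, −0.09 and −0.17, Fabp2 by −0.31, Abcb1a by 0.32 (without mouse 77, which had no value), Sult1a1 by 0.14, Srebf1 by 0.07 and the nuclear receptor Ppara by 0.05 ± 0.13, and none of these passed the test.

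Of 45 gene lists, 16 had a called member in Il10-/- mice and 29 had none. Oxidative phosphorylation had 0 of 31 members called, with 15 lower at an unadjusted p under 0.05, against 5.9% of all genes. Its median was −0.16, against 0.16 in C57 mice, where 16 members were higher at that threshold (6.9% of all genes). The interaction was called for 4 of the 31, all negative (0.655% of all genes). The first members Ndufa1 and Ndufa2 differed by −0.24 ± 0.10 and −0.19 ± 0.08 in Il10-/- mice. In these mice the list medians lay between −0.37 and −0.30 at 12 weeks and between −0.20 and −0.18 at 7 weeks. The interferon response list had 0 of 43 called and a median of −0.10, with Stat2 at −0.20 ± 0.18 and Irf1 at −0.16 ± 0.12. In C57 mice its median was −0.27, with 18 members lower at an unadjusted p under 0.05, against 6.27% of all genes. MHC class I and peptide loading had 0 of 25 called and a median of 0.07 in Il10-/- mice. In C57 mice 5 of the 25 were called lower (0.173% of all genes), with a median of −0.32. The interaction was called for 6 of the 25, all positive (0.493% of all genes). Mitosis and DNA replication had 0 of 39 called and a median of −0.09, with Mki67 at −0.46 ± 0.20 and Top2a at −0.20 ± 0.07. Mucus and goblet cell genes had 0 of 23 called and a median of 0.00, with Muc2 at −0.27 ± 0.23 and Muc1 at −0.20 ± 0.07. Smooth muscle had 0 of 21 called and a median of −0.21, with group ranges that overlapped (−0.11 to 0.10 at 12 weeks and −0.11 to 0.11 at 7 weeks). A list without a call is not shown to be unchanged: on simulated data a true 1.5 fold difference was called for 48% of genes and a 2 fold difference for 97%. A call needs an estimate of at least 1.5 fold, so a true 1.5 fold difference sits at that threshold and is often missed at any precision. Each simulated gene had the same spread in every group. In the data Il1b had an SD of 1.06 in the 12-week and 0.26 in the 7-week Il10-/- mice.

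**Figure D5:**
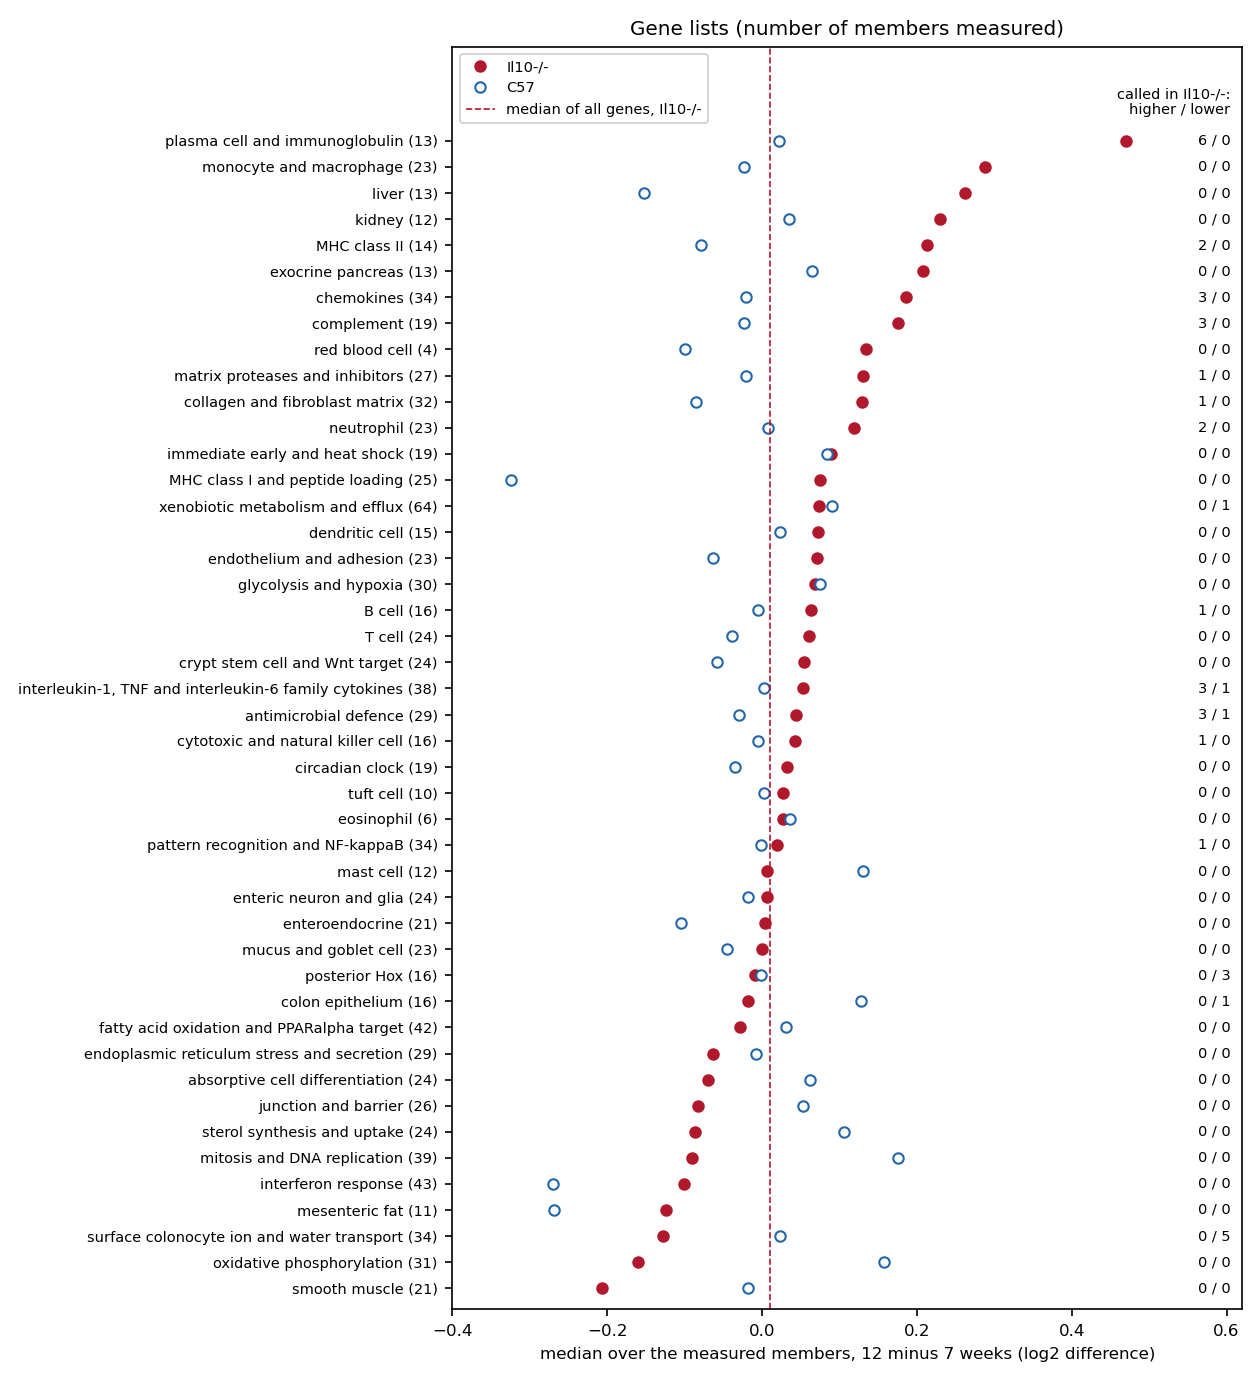
Median log2 difference between 12 and 7 weeks over the measured members of each of 45 gene lists, in Il10-/- mice (filled points) and C57 mice (open points), with the number of members called higher and lower in Il10-/- mice at the right and the median of all genes as a dashed line. The plasma cell and immunoglobulin list lies highest at 0.47 and the smooth muscle list lowest at −0.21 in Il10-/- mice.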

How the data were processed

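The deposited values are log2 ratios of colon RNA (Cy3) over the pool (Cy5) from 2-colour Agilent arrays of 15 mice, which the authors normalized by loess within each array in limma, with no background correction (limma's version is not given in the sources used here). A feature was kept where each group had 2 or more arrays with a value for it (42128 of 44290), and features of 1 annotated symbol were averaged to 19076 genes. Group means of the 4 groups were fitted with limma 3.58.1 in R 4.3.3 (11 residual degrees of freedom), and calls needed a Benjamini-Hochberg adjusted p under 0.05 and a 1.5 fold change. Errors beside differences are standard errors. Groups come from the titles of the arrays, since the other labels give the same strain and age throughout. The labels give 1 mouse per array. The members and gene lists were chosen with earlier results of these data known.

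The genes named are the 10 largest rises and falls, up to 6 called members of each list, the largest interactions, the largest changes in C57 mice, Il10 and the RT-PCR genes. The other called genes, the Hoxa cluster, Ighm and Ighg3 were named after their values were seen, lists without a called member are mostly given by counts, and 1 kappa variable gene among the largest rises is given without its symbol. Alternatives were centring, scale and quantile normalization, array weights, a robust prior, only the groups compared, the most variable feature, filters on missing, shared and little varying values, other fold thresholds, and leaving out mice. The fit was tested on simulated data. Motif letters were searched in RefSeq promoter windows (GRCm38.p6).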

Additional observations from a re-analysis of the deposited data

Results flagged for a closer look

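The change between 12 and 7 weeks in Il10-/- mice minus that in C57 mice was called by limma for 60 genes named above, on the log2 scale. It was positive for 2210407C18Rik 2.01, Acod1 0.90, Apoe 1.68, Arhgdib 0.84, Ccdc88b 1.55 and Cd79b 0.94. Positive differences were also called for Ceacam12 1.22, Clec7a 0.87, Clu 0.88, Col18a1 0.72, Cp 0.73 and Ctla2a 1.54. Above 0 were Ctla2b 1.16, Ctsh 0.62, Cxcl12 0.88, Cxcl13 0.70, Cxcl14 0.93 and H2-Aa 0.71. It was positive for H2-Ab1 0.86, Hp 1.59, Igha 0.71, Ighv1-33 1.33, Ighv1-54 1.18 and Ighv14-4 1.63. Positive differences were also called for Igkv10-96 1.61, Igkv3-4 0.94, Igkv4-55 1.29, Iglv1 2.80 and Il33 0.63. Above 0 were Itgb7 0.88, Jchain 1.83, Ltb 0.84, Mmrn2 0.82, Mzb1 0.69 and Ncf4 0.67. It was positive for Pou2af1 0.82, Rnf186 1.61, S100g 2.85, Slpi 1.14, Srgn 1.12 and Thbd 0.94. It was negative for Aqp4 −1.32, Aqp8 −5.02, Car2 −1.94, Car4 −1.02, Clca4a −2.49 and Cyp4f14 −0.92. Negative differences were also called for Eif4ebp3 −0.65, Gsdmc −1.93, Gsdmc2 −1.86, Hoxa10 −1.26, Hoxa11 −0.97 and Hoxa9 −0.96. Below 0 were Hoxaas3 −0.88, Il18 −1.19, Mall −0.66, Pla2g5 −0.71, Rfk −0.78 and Slc26a3 −2.19. It was negative for Smpdl3a −0.96.

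Of these 60 calls, 37 held without any 1 of the 15 mice and 23 were lost without some 1 mouse. In brackets is the range of the difference over all 15 mice left out in turn. The call was lost for Acod1 without any 1 mouse but 63, 92 and 95 (0.77 to 1.10), Aqp4 without any 1 of mice 44 or 96 (−1.62 to −0.98), Arhgdib without any 1 mouse but 65, 66, 46, 92 and 75 (0.73 to 0.96) and Car4 without any 1 mouse but 63, 92 and 95 (−1.21 to −0.82). It was also lost for Ceacam12 without mouse 78 (1.08 to 1.37), Clca4a without any 1 mouse but 63, 65, 46, 92, 95, 96 and 75 (−2.82 to −2.04), Col18a1 without any 1 mouse but 65, 66 and 95 (0.64 to 0.86) and Ctsh without any 1 mouse but 65, 92 and 75 (0.53 to 0.70). Lost as well were the calls of Cxcl12 without any 1 mouse but 63, 65, 46, 92, 96 and 75 (0.74 to 1.08), Cxcl13 without any 1 mouse but 63, 65, 92, 94 and 75 (0.58 to 0.81), Cyp4f14 without any 1 mouse but 63, 43, 95 and 75 (−1.10 to −0.76) and Eif4ebp3 without mouse 46 (−0.72 to −0.58). The call did not hold for Hp without any 1 mouse but 63, 66, 46, 92, 95 and 75 (1.35 to 1.79), Igha without mouse 78 (0.61 to 0.77), Igkv3-4 without any 1 of mice 44, 77 or 78 (0.81 to 1.07) and Il33 without any 1 mouse but 65, 66, 45 and 95 (0.53 to 0.72). The call was lost for Ltb without any 1 of mice 43, 44, 45, 96, 75 or 78 (0.70 to 0.99), Mall without any 1 of mice 77 or 78 (−0.77 to −0.57), Pla2g5 without mouse 78 (−0.83 to −0.60) and Rfk without any 1 of mice 77 or 78 (−0.89 to −0.69). It was also lost for Rnf186 without any 1 mouse but 63, 64, 66, 92 and 75 (1.32 to 1.83), Smpdl3a without mouse 78 (−1.10 to −0.85) and Thbd without any 1 of mice 77 or 78 (0.84 to 1.12).

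Of 363 groups of 4 mice tested over the named genes, 25 held a mouse far from the other 3. About 1 group in 20 is marked by chance, and no cause was tested. Mouse 63 of the C57 12-week mice stood apart, by its log2 ratio, in Acod1 (−0.02, others −0.17 to −0.15) and Ces2g (−0.23, others −0.12 to −0.11). Mouse 64 of the C57 12-week mice stood apart, by its log2 ratio, in Ccdc88b (0.04, others 0.18 to 0.21) and Eif4ebp3 (0.95, others 1.03 to 1.04). Mouse 65 of the C57 12-week mice stood apart, by its log2 ratio, in Ighm (−0.19, others −0.45 to −0.41) and Srgn (−1.99, others −2.60 to −2.52). Mouse 66 of the C57 12-week mice stood apart, by its log2 ratio, in Clca4a (0.77, others −0.56 to −0.50). Mouse 43 of the C57 7-week mice stood apart, by its log2 ratio, in Fabp2 (−0.34, others −0.56 to −0.54). Mouse 44 of the C57 7-week mice stood apart, by its log2 ratio, in Apoe (−1.02, others −1.68 to −1.60), Il1b (0.28, others 0.02 to 0.05) and Slc26a3 (0.25, others 0.36 to 0.37). Mouse 45 of the C57 7-week mice stood apart, by its log2 ratio, in Col18a1 (−1.55, others −1.66 to −1.64) and Il33 (−0.40, others −0.20 to −0.19). Mouse 46 of the C57 7-week mice stood apart, by its log2 ratio, in Ppara (−0.19, others 0.03 to 0.06), Slc13a2 (0.60, others 0.93 to 0.96) and Snrpb (0.16, others 0.01 to 0.04). Mouse 92 of the Il10-/- 12-week mice stood apart, by its log2 ratio, in Aqp4 (−0.02, others −0.53 to −0.46), Gsdmc2 (0.03, others −0.87 to −0.81), Il10 (0.25, others 0.03 to 0.05) and Reg4 (1.64, others −1.08 to −0.77). Mouse 95 of the Il10-/- 12-week mice stood apart, by its log2 ratio, in Aldh1a1 (−0.37, others −1.62 to −1.45), F3 (0.04, others 0.87 to 0.93), Slc51b (1.18, others 0.65 to 0.72) and Slpi (0.29, others 0.63 to 0.67). Mouse 96 of the Il10-/- 12-week mice stood apart, by its log2 ratio, in Igkv3-4 (0.89, others 0.31 to 0.41).

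Features that list no gene or several took no part in the comparisons of genes. Of 10112 such features, 102 were higher at 12 than at 7 weeks in Il10-/- mice (1.01%) and 4 were lower (0.0396%).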

How the results depend on the processing

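In Il10-/- mice, the 57 higher genes became 36 to 69 and the 23 lower genes 14 to 44 when each of the 15 mice was left out in turn. In C57 mice the counts ran from 27 to 51 (higher) and from 9 to 45 (lower), and the difference between genotypes from 56 to 128 (positive) and from 80 to 155 (negative). Without a fold threshold, 172 genes were higher and 92 lower in Il10-/- mice, 137 and 67 in C57 mice, and 195 positive and 235 negative for the difference. At a fold of 2 the same counts were 20 and 11, 18 and 8, and 24 and 34. The lower genes in Il10-/- mice numbered 35 with array weights, 11 with only the groups compared and 57 without mice 95 and 75 together, and scale normalization gave 54 positive differences between genotypes. The cause of these shifts was not tested. The fits of the groups compared also held fewer arrays. None of the 80 called genes changed sign in any setting run, and 48 kept their call with only the groups compared, 64 with quantile and 72 with scale normalization. Quantile normalization ended the calls of 2210407C18Rik, Alpl, C4b, Ceacam12, Col18a1, Cp, Cxcl12, F3, Hp, Il1b, Lyz1, Ncf4, S100a9, Snrpb, Sp5 and Thbd, and scale normalization those of 2210407C18Rik, H2-Ab1, Hp, Il1b, Pirb, S100a9, Slc6a8 and Snrpb. Taking the most variable feature of each gene kept 75 calls and ended those of Cxcl12, F3, H2-Ab1, Slc6a14 and Snrpb.

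Some genes that were not called between the ages in Il10-/- mice changed sign. Leaving out 1 mouse at a time gave log2 differences of −0.195 to 0.0432 for Ces2e, −0.10 to 0.26 for Chga, −0.68 to 0.10 for Clca4a, −0.0318 to 0.0949 for Hoxa2 and −0.0415 to 0.0107 for Hoxa4. It gave −0.0209 to 0.0851 for Il10, −0.0789 to 0.147 for Ppara, −0.14 to 0.28 for Rnf186, −0.13 to 0.24 for S100g and −0.31 to 0.53 for Sult1a1. Quantile normalization gave −0.038 for Ppara and −0.22 for S100g, scale normalization −0.0084 for Rnf186 and array weights −0.0662 for S100g. Without mice 95 and 75 together, Chga was at −0.0472, Ppara at −0.0219, S100g at −0.024 and Sult1a1 at −0.32.

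No paired analysis was possible because the groups share no mouse numbers. With 4 and 3 mice the fits resolve changes of 2 fold better than those of 1.5 fold, and the deposited ratios carry no signal over background, so dim features cannot be told from bright ones.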
